A study of Homo sapiens with 9 samples.

Results

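The nuclear genes for the structural subunits of the respiratory chain and of ATP synthase were followed in LIM1215 colorectal cancer cells before and after selection for cetuximab resistance. Members were the listed symbols starting with NDUFA, NDUFB, NDUFC, NDUFS, NDUFV, UQCR, COX4 to COX8, ATP5F1, ATP5M or ATP5P, together with SDHA, SDHB, SDHC and SDHD, that had at least 900 counts over all libraries. Of 301 symbols under these prefixes, 188 were pseudogenes, 18 were assembly factors or their pseudogenes, 8 were antisense, divergent or readthrough transcripts, and 12 fell under the count limit. The remaining 75 genes were the members, out of 58920 listed genes, 19102 tested genes and 10085 genes with at least 900 counts. Complex I had 35 members, complex II 4, complex III 8, complex IV 12 and complex V 16, and NDUFA4, once assigned to complex I, was counted with complex IV.

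LIM1215 is a human colorectal cancer cell line, and cetuximab is an antibody against the EGF receptor. LIM1215-R1 and LIM1215-R2 were selected separately from it in rising cetuximab concentrations, and LIM1215-parental cells were kept in culture alongside without the antibody. Both resistant lines are mixed populations rather than single clones, in which the study describes HRAS mutations in part of the cells. RNA came from all 3 lines in what the study calls basal, untreated culture, in the same serum-containing medium. The resistant lines were otherwise maintained with cetuximab. How long before harvest the antibody was withdrawn is not stated for this RNA. Each line gave 3 libraries, which the study calls technical replicates. The p-values therefore measure the spread between these libraries, and differences in culture or harvest cannot be told apart from differences between lines.

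Electrons from NADH enter the chain at complex I and those from succinate at complex II. Ubiquinone carries them to complex III and cytochrome c to complex IV, where oxygen is reduced, and complex V uses the resulting proton gradient to make ATP. A few core subunits are encoded by mitochondrial DNA, and all others, including every subunit of complex II, are encoded in the nucleus, translated in the cytosol and imported. Colorectal cancer cells use glycolysis and respiration side by side.

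The libraries held 13737416 to 18725014 counts, with TMM scaling factors from 0.984 to 1.02. Levels are given as CPM, each count over the TMM-scaled library total. The summed marker levels below and the limit given for 0 counts use unscaled totals instead. Between 0.791% and 0.914% of a library's counts fell on the members, which had between 202 and 17712 counts each per library, and the median coefficient of variation of a member between libraries was 4.04% among the parental libraries, 4.31% in LIM1215-R1 and 4.35% in LIM1215-R2. Colon epithelial markers were detected for 9 of 10 genes, while KRT20 had 0 counts. Their summed levels were 12481 to 12766 CPM in LIM1215-parental, 15981 to 16226 in LIM1215-R1 and 14631 to 15107 in LIM1215-R2. KRT8 and KRT18 held most of these sums, and the markers did not change together. By the test described below, 4 were higher and 4 lower in each resistant line than in LIM1215-parental. Of 10 markers of blood, endothelial and stromal cells, 7 had a count in LIM1215-parental and 6 in each resistant line, and their summed level was 11.3 to 14.9 CPM, 15.5 to 17.5 CPM and 10.9 to 13.5 CPM in the same order. PTPRC and CD3E, which mark leukocytes and T cells, had 0 counts. CD68 had the most, 1525 over the 9 libraries, followed by ACTA2 with 225. Of the 5 that were tested, 1 (20.0%) was higher and 1 (20.0%) lower in LIM1215-R1, against 14.0% and 13.4% of all genes tested. In LIM1215-R2, 0 were higher and 1 (20.0%) lower, against 12.3% and 11.6%.

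The stretches upstream of 4 members are printed because they hold motifs known from respiration genes and belong to genes described below. SDHD and ATP5PO fell in both resistant lines, NDUFS1 fell in LIM1215-R1, and UQCRH was the gene that differed between the resistant lines. Each runs from the given number of bases to 1 base before the RefSeq start of the gene, 5′ to 3′ on the strand of the gene, with matches of the NRF1 motif (GCGCA, any base, GCGC) or the ETS motif (CCGGAAG), or of their reverse complements (GCGC, any base, TGCGC, and CTTCCGG), in capitals. NRF1 and GABPA, an ETS factor, are regulators known to bind promoters of respiratory chain genes. All the printed stretches were taken from members that passed a test. Matches also lay upstream of members that passed in neither line, among them SDHA and UQCRC1 for the NRF1 motif and SDHB for the ETS motif. Whether a motif goes with a change in level was not tested.
SDHD, 120 bases, GRCh38.p14 chr11:112086753-112086872, plus strand: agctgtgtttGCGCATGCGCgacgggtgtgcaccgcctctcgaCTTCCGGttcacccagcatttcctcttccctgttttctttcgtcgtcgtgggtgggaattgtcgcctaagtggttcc
ATP5PO, 60 bases, GRCh38.p14 chr21:33915805-33915864, minus strand: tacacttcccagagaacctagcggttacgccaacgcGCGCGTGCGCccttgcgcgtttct
UQCRH, 60 bases, GRCh38.p14 chr1:46303638-46303697, plus strand: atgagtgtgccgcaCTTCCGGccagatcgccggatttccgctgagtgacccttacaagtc
NDUFS1, 170 bases, GRCh38.p14 chr2:206159445-206159614, minus strand: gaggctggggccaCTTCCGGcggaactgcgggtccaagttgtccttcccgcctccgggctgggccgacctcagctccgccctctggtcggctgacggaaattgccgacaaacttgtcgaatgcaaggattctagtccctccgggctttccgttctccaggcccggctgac

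Promoter sequences from RefSeq matched 63 of the 75 members by symbol. COX6C, NDUFC2 and ATP5F1D were among those not matched. In the 250 bases before the start, searched on both strands, the NRF1 motif lay in 13 members (20.6%), against 5.53% of all 27305 promoters and 11.8% of the 8206 promoters of genes with at least 900 counts. The ETS motif lay in 17 members (27.0%), against 8.82% and 18.2%, and the YY1 motif AANATGGCG in 2 members (3.17%), against 1.4% and 2.62%. At least 1 of the 3 motifs lay in 29 members (46.0%), against 14.4% and 29.6%. The NRF1 match of SDHD reads the same on both strands and does not overlap its ETS match. The median GC content of these windows was 60.8% in the members, 58.0% in all promoters and 65.6% in those of genes with at least 900 counts.

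Added up, the RNA of the members was at a lower level in LIM1215-R2 and, by a smaller margin, in LIM1215-R1 than in LIM1215-parental cells. The summed level of all 75 was 8876, 9067 and 8855 CPM in LIM1215-parental libraries 1 to 3. It was 8388, 8781 and 8529 CPM in LIM1215-R1 and 7935, 7992 and 8268 CPM in LIM1215-R2. Every library of either resistant line lay below every parental library, and the mean difference was -4.1% in LIM1215-R1 and -9.71% in LIM1215-R2. In bulk RNA, fewer cells that express a gene and less RNA of it per cell cannot be told apart.

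By complex, the summed levels were furthest apart for complex IV. Its mean was 1737 ± 38.2 CPM (SD, n = 3) in parental libraries, 1547 ± 59.5 in those of LIM1215-R1 and 1433 ± 53.7 in those of LIM1215-R2, differences of -10.9% and -17.5%. Without its most changed member, COX6C, these differences were -6.99%, with overlapping libraries, and -14.3%, an alternative chosen after the values had been seen. Complex II differed by -5.73% and -6.46%, complex V by -3.18% and -8.13%, complex III by -0.834% and -9.14%, and complex I by -1.53% and -7.19%. In LIM1215-R1 the libraries of complexes I and III overlapped with the parental ones, whereas in LIM1215-R2 all 5 complexes lay below the parental libraries. No test was run on these sums.

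**Figure D1:**
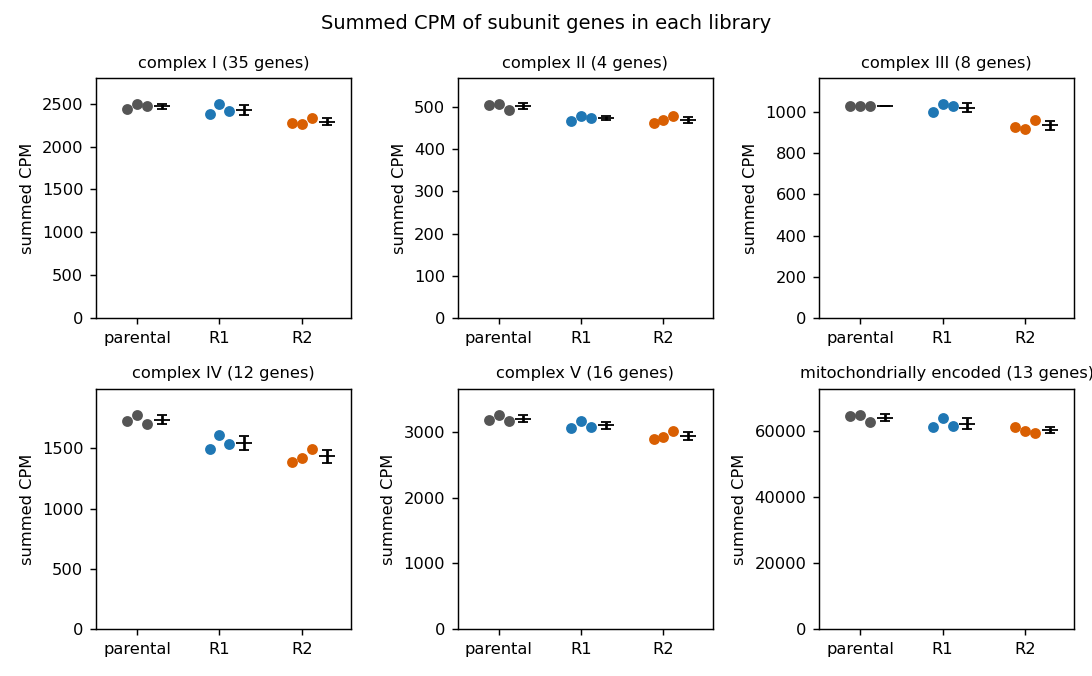
Summed CPM (vertical axes, from 0) of the members of each complex and of the 13 mitochondrially encoded subunits in the 3 libraries of each line. Points are libraries, and the black marks are the mean with SD. Complex IV shows the widest gap, from 1737 CPM in LIM1215-parental to 1433 CPM in LIM1215-R2.

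Gene by gene, the changes were small and mostly downward. With edgeR's quasi-likelihood test and Benjamini-Hochberg adjustment over all genes tested, called where the adjusted p did not exceed 0.01 whatever the size of the change, 12 members (16.0%) were lower and 2 (2.67%) higher in LIM1215-R1 than in LIM1215-parental cells. Over all genes tested, 13.4% were lower and 14.0% higher, and among genes with at least 900 counts 20.0% were lower and 20.2% higher. The share of members that fell in LIM1215-R1 thus lay between both backgrounds, and the share that rose was under both. With each library's trends on transcript length and GC content removed, 21 members were lower and 1 higher in LIM1215-R1, and the background under that alternative was not computed. In LIM1215-R2, 22 members (29.3%) were lower and 1 (1.33%) higher, against 11.6% and 12.3% of all genes tested and 16.8% and 18.1% of genes with at least 900 counts.

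The median log2 fold change of the members was -0.05 in LIM1215-R1 and -0.14 in LIM1215-R2, beside -0.01 and 0.0 over genes with at least 900 counts. The log2 fold change lay below zero for 50 and 69 of the 75 members, against 5171 and 5037 of the 10085 genes with at least 900 counts. No member reached the DEG threshold of the study. That threshold was an adjusted p of at most 0.01 with a log2 fold change of 1.5 or more in either direction. Of all genes tested, 5.14% and 4.82% reached it. An unadjusted edgeR p under 0.05 was found for 22 and 43 of the 75 members. Among the 10085 genes with at least 900 counts, it was found for 5931 and 5489. The share of members was thus under that background in LIM1215-R1 and near it in LIM1215-R2. Only 5 members in LIM1215-R1 and 3 in LIM1215-R2 passed the test with a log2 fold change of 0.3 or more in size. The median SE of a member was 0.0597 and 0.0601, which sets the smallest change these libraries could show.

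In all, 18 members (24.0%) had all 3 LIM1215-R1 libraries below all 3 parental ones and 6 (8.0%) all above, against 29.4% and 27.3% of genes with at least 900 counts. For LIM1215-R2, 42 members (56.0%) lay below and 0 above, against 27.9% in either direction. Both comparisons share the parental libraries, so their lists are not independent. Of the members, 11 passed as lower and 1 as higher in each comparison. Another 2 passed in LIM1215-R1 alone and 11 in LIM1215-R2 alone, and 50 passed in neither. The same overlap over all genes was not computed, so whether these counts are unusual for these lines cannot be told. The counts also depended on single libraries. The total passing in LIM1215-R1 was 14, and 9 without parental library 3 or without LIM1215-R1 library 3. The total in LIM1215-R2 was 23, and 11 without LIM1215-R2 library 1 and 13 without LIM1215-R2 library 2.

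**Figure D2:**
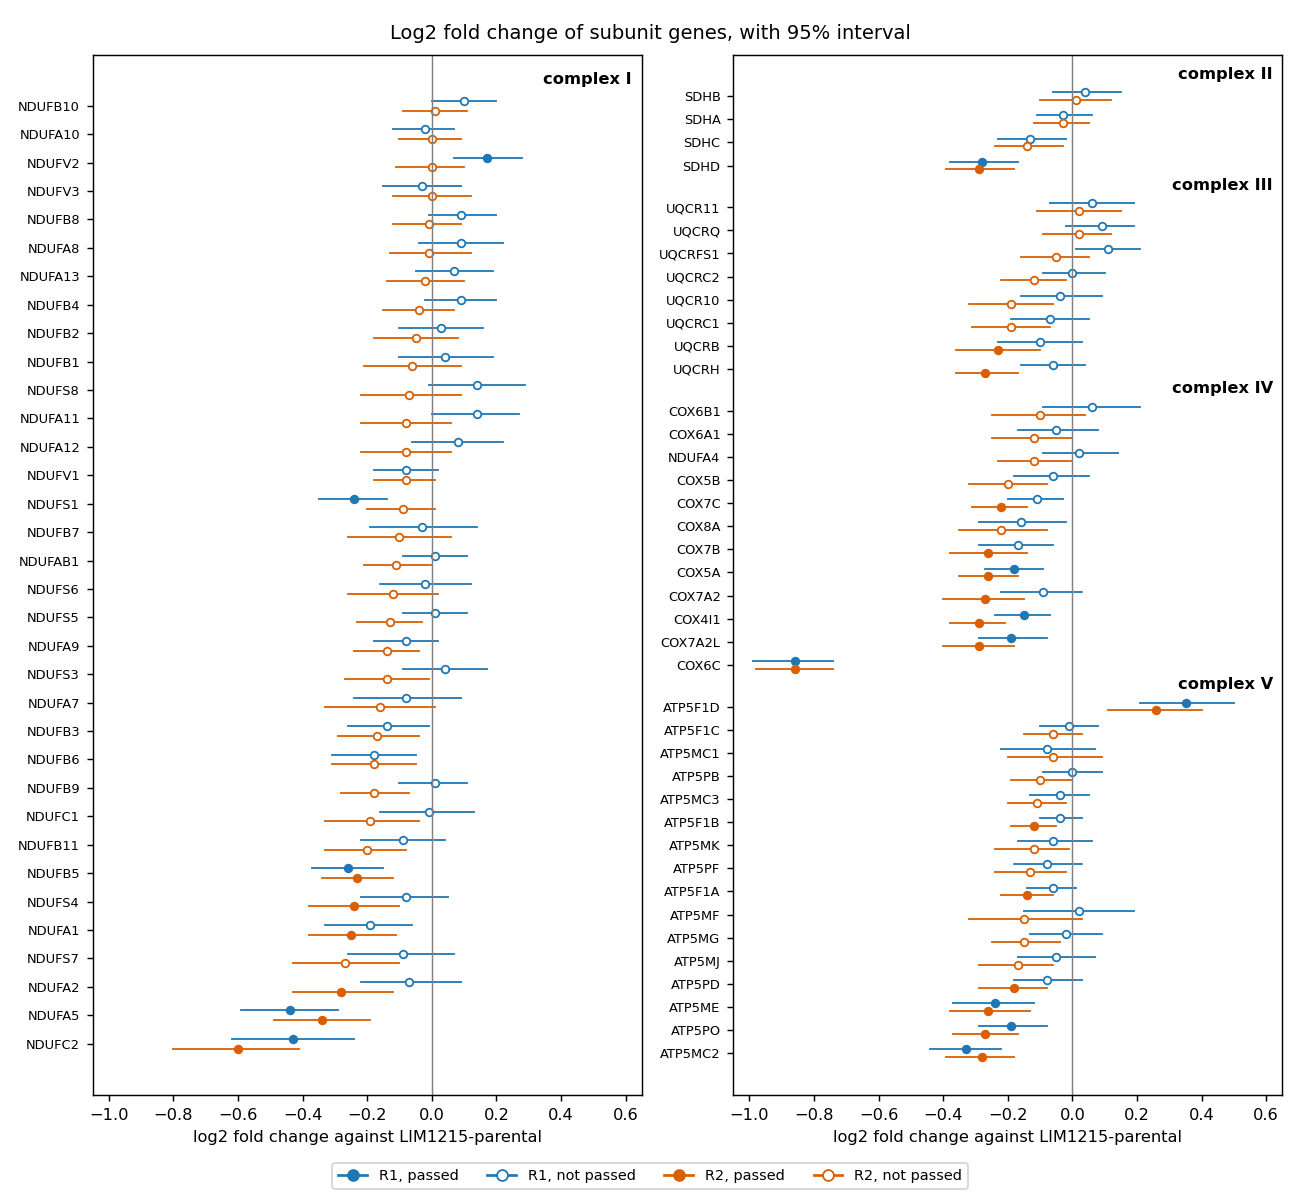
Log2 fold change against LIM1215-parental (horizontal axes) of the members reported singly, grouped by complex, in LIM1215-R1 and LIM1215-R2, with bars of 1.96 SE on each side as 95% intervals. Filled points passed an adjusted p of at most 0.01. COX6C is lowest, at -0.86 in both lines. The next is NDUFA5 at -0.44 in LIM1215-R1 and NDUFC2 at -0.60 in LIM1215-R2, where its interval overlaps that of COX6C. ATP5F1D is the member furthest to the right, at 0.35 and 0.26.

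Complex I is the NADH dehydrogenase. Of the subunits of its redox-active core among the members, 1 fell and 1 rose in LIM1215-R1, 14.3% each against 20.0% and 20.2% of genes with at least 900 counts. In LIM1215-R2, 0 of 7 passed and 2 had an unadjusted edgeR p under 0.05, against 5489 of 10085 genes with at least 900 counts. NDUFS1, which carries iron-sulfur clusters of the matrix arm, had 95.2, 97.3 and 92.2 CPM in LIM1215-parental and 82.6, 79.8 and 78.1 CPM in LIM1215-R1. The groups did not overlap, with a log2 fold change of -0.24 ± 0.0547 (SE) and an adjusted p of 0.000804 by edgeR. With each library's trends on transcript length and GC content removed, the change of NDUFS1 was -0.10 with an adjusted p of 0.0956, so this call was lost. In LIM1215-R2, NDUFS1 had 87.1, 94.0 and 86.0 CPM and did not pass.

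NDUFV2, a core subunit that holds another iron-sulfur cluster, rose in LIM1215-R1. Its libraries had 102, 98.7 and 105 CPM in LIM1215-parental and 118, 117 and 109.6 CPM in LIM1215-R1, and the log2 fold change was 0.17 ± 0.0522 with an edgeR adjusted p of 0.0093. Of the 19 refitted alternatives, 10 took this call away, with adjusted p up to 0.0371. In LIM1215-R2 the levels were 99.8, 105 and 99.6 CPM, within the parental range. NDUFV1, which binds NADH, and NDUFS3, NDUFS7 and NDUFS8 of the ubiquinone end passed in neither line, at log2 fold changes from -0.27 to 0.14.

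Among the 28 supernumerary subunits of complex I, which surround the core, 3 (10.7%) fell in LIM1215-R1 and 6 (21.4%) in LIM1215-R2, against 20.0% and 16.8% of genes with at least 900 counts. NDUFC2, a subunit of the membrane arm, had the lowest counts of all members, 2403 over the 9 libraries. It was at 21.2, 22.5 and 18.3 CPM in LIM1215-parental, 14.3, 14.4 and 16.9 CPM in LIM1215-R1 and 13.2, 14.1 and 13.2 CPM in LIM1215-R2. Both resistant lines lay wholly below the parental libraries, with log2 fold changes of -0.43 ± 0.0972 and -0.60 ± 0.0988 and edgeR adjusted p of 0.000749 and 1.74e-05. The readthrough gene NDUFC2-KCTD14 was listed with 0 counts, as was ATP5MF-PTCD1 for the complex V member ATP5MF. Whether reads shared with them were left uncounted was not tested, so the counts of NDUFC2 and ATP5MF may not hold all their reads.

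NDUFA5, a subunit of the matrix arm, had 79.8, 68.9 and 79.0 CPM in LIM1215-parental, 63.1, 49.1 and 55.8 CPM in LIM1215-R1 and 64.1, 60.1 and 55.7 CPM in LIM1215-R2. All resistant libraries lay under the parental ones, and the log2 fold changes were -0.44 ± 0.0761 and -0.34 ± 0.0757, with edgeR adjusted p of 3.48e-05 and 0.000731. NDUFB5 of the membrane arm fell in both lines by a smaller amount, at -0.26 and -0.23, and 3 of 19 refitted alternatives took away its LIM1215-R2 call. NDUFA1, NDUFA2 and NDUFS4 passed in LIM1215-R2 alone, at -0.25, -0.28 and -0.24, while their LIM1215-R1 values of -0.19, -0.07 and -0.08 did not pass. These LIM1215-R2 calls were lost under 6, 6 and 10 of the 19 refitted alternatives, for NDUFA1 and NDUFS4 also with length and GC trends removed. The median over the 28 supernumerary subunits was -0.02 and -0.13.

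Complex II, succinate dehydrogenase, links the TCA cycle to the chain and is made of 4 nuclear-encoded proteins. SDHD, a membrane anchor whose upstream sequence is printed above, was the member that fell. Its libraries had 113, 110.5 and 103 CPM in LIM1215-parental, 90.2, 88.6 and 91.0 CPM in LIM1215-R1 and 85.3, 93.2 and 89.6 CPM in LIM1215-R2. The resistant libraries did not overlap with the parental ones, with log2 fold changes of -0.28 ± 0.054 and -0.29 ± 0.054 and edgeR adjusted p of 0.000157 and 0.000118. SDHC, the other anchor, had values of -0.13 and -0.14 with all resistant libraries below the parental ones, but adjusted p of 0.0589 and 0.0467 by edgeR. The flavoprotein SDHA, at -0.03 in both lines, and the iron-sulfur protein SDHB, at 0.04 and 0.01, overlapped with the parental libraries. Listed pseudogenes of SDHA held 3330 counts over the 9 libraries, so that some of its reads may have been counted elsewhere.

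Complex III passes electrons from ubiquinol to cytochrome c. In LIM1215-R1, 0 of its 8 members passed. An unadjusted edgeR p under 0.05 was found for 1, against 5931 of 10085 genes with at least 900 counts. In LIM1215-R2, UQCRH and UQCRB fell. UQCRH, the hinge protein that helps cytochrome c bind, had 150.4, 141 and 143 CPM in LIM1215-parental, 138, 136 and 143 CPM in LIM1215-R1 and 121, 115 and 126 CPM in LIM1215-R2. The LIM1215-R2 libraries lay below all others, with a log2 fold change against LIM1215-parental of -0.27 ± 0.0503 and an edgeR adjusted p of 0.000124. UQCRB, a ubiquinone-binding subunit, had a log2 fold change of -0.23 ± 0.0675 in LIM1215-R2 with an edgeR adjusted p of 0.0091, and 9 of 19 refitted alternatives took this call away. The Rieske iron-sulfur protein UQCRFS1 and the core proteins UQCRC1 and UQCRC2 passed in neither line, with values from -0.19 to 0.11.

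Complex IV, cytochrome c oxidase, had the largest share of members that fell, 33.3% in LIM1215-R1, or 4 of 12, and 58.3% in LIM1215-R2, or 7 of 12, against 20.0% and 16.8% of genes with at least 900 counts, and none of its members rose. Its median log2 fold change was -0.13 and -0.24. COX6C, a small subunit that spans the inner membrane beside the catalytic core, changed most of all members. It had 188, 166 and 186 CPM in LIM1215-parental, 108, 91.8 and 97.2 CPM in LIM1215-R1 and 107, 95.6 and 94.5 CPM in LIM1215-R2. The highest resistant library was far under the lowest parental one, and the level fell by 45.0% in LIM1215-R1 and by 44.9% in LIM1215-R2. The log2 fold change was -0.86 ± 0.0623 in each line, with edgeR adjusted p of 7.99e-12 and 8.79e-12. Among genes with at least 900 counts, 2.01% and 2.3% fell further than COX6C. Its values stayed between -0.93 and -0.80 in LIM1215-R1 and between -0.92 and -0.78 in LIM1215-R2 over the 19 refitted alternatives.

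COX4I1, the largest nuclear-encoded subunit of complex IV, had 284, 294 and 282 CPM in LIM1215-parental, 259, 258 and 256 CPM in LIM1215-R1 and 226, 229.9 and 247 CPM in LIM1215-R2. The 3 lines did not overlap. Its log2 fold change was -0.15 ± 0.0442 in LIM1215-R1, with an edgeR adjusted p of 0.00694 that 10 of 19 refitted alternatives raised above the threshold, and -0.29 ± 0.0444 in LIM1215-R2, with an adjusted p of 5.64e-06 that held in all of them. COX5A, on the matrix side, fell by 0.18 and 0.26 on the log2 scale, and 3 of 19 alternatives took away its LIM1215-R1 call. COX7A2L, which joins complexes III and IV in supercomplexes, fell by 0.19 and 0.29, but 12 of 19 refitted alternatives took away its LIM1215-R1 call, among them DESeq2, the fit to 6 libraries and 7 of the 9 fits that left out a library. With trends on transcript length and GC content removed, that value was -0.11 with an edgeR adjusted p of 0.0814.

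COX7A2, COX7B and COX7C, 3 small membrane subunits, passed in LIM1215-R2 alone, at -0.27, -0.26 and -0.22, beside -0.09, -0.17 and -0.11 in LIM1215-R1. The calls of COX7A2 and COX7B were both lost without LIM1215-R2 library 1 or 2. COX5B and COX8A were at -0.20 and -0.22 in LIM1215-R2 with edgeR adjusted p of 0.0103 and 0.0138, just outside the threshold. COX6A1, COX6B1 and NDUFA4 passed in neither line, at -0.12, -0.10 and -0.12 in LIM1215-R2. The COX6A1 transcript aligned to 2 loci on the chromosomes, and its listed pseudogene COX6A1P2 had 620 counts over the 9 libraries. Whether reads shared with another locus were left uncounted was not tested, so the counts of COX6A1 may not hold all its reads.

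**Figure D3:**
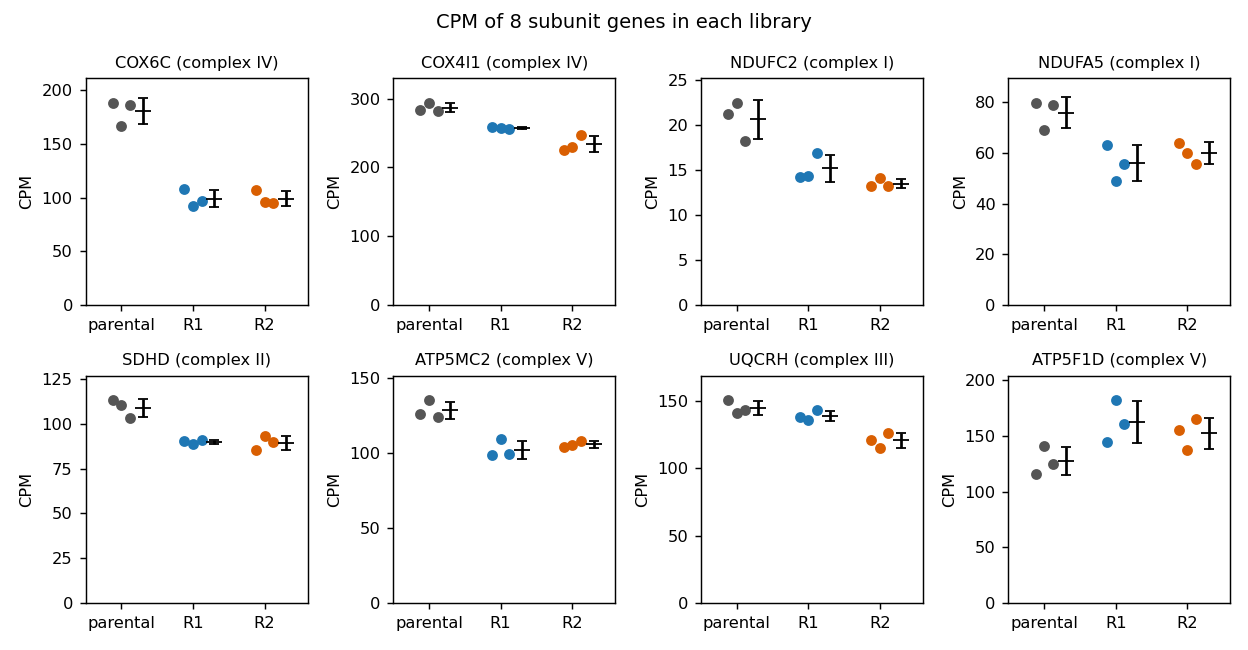
CPM (vertical axes, from 0) of 8 members in the 3 libraries of each line, with the mean and SD in black. COX6C libraries lie between 166 and 188 CPM in LIM1215-parental and between 91.8 and 108 CPM in the resistant lines, and ATP5F1D is the panel in which the resistant means, 163 and 152 CPM, are above the parental mean of 127 CPM.

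COX6C lies on chromosome 8, and the genes around it did not share its change. Within 2 Mb on each side, a span chosen after its value had been seen, 15 other genes had at least 900 counts. In LIM1215-R1, 2 of these were lower, VPS13B at -0.27 and the epithelial transcription factor gene GRHL2 at -0.35, NIPAL2 was higher at 0.58, and 12 did not pass. In LIM1215-R2, GRHL2 was lower at -0.35 and the ribosomal protein gene RPL30 at -0.26, NIPAL2 was higher at 0.72 and RNF19A at 0.33, and 11 did not pass. POLR2K, the nearest of them on the other side from VPS13B, was at -0.05 in both lines. UQCRB and NDUFB9, the other members on that chromosome, were at -0.10 and 0.01 in LIM1215-R1 and at -0.23 and -0.18 in LIM1215-R2.

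**Figure D4:**
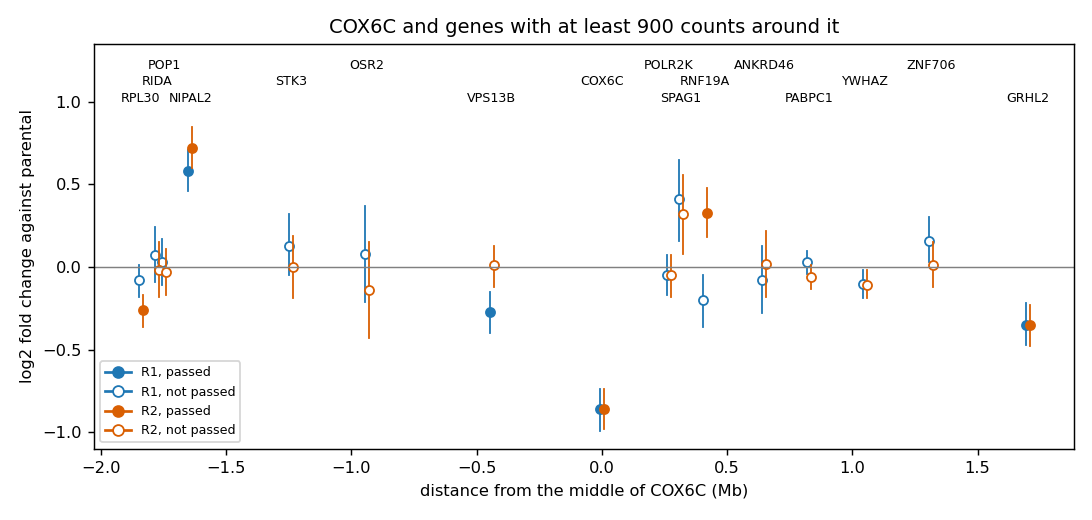
Log2 fold change against LIM1215-parental (vertical axis) of COX6C and the 15 other genes with at least 900 counts, by distance from the middle of COX6C in Mb (horizontal axis), with 95% intervals. Filled points passed the test. COX6C is at -0.86 in both lines and every neighbour lies at or above -0.35.

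Complex V, ATP synthase, held the member that rose in both lines. Of its 16 members, 3 (18.8%) fell in LIM1215-R1, near the 20.0% of genes with at least 900 counts. In LIM1215-R2, 6 (37.5%) fell, against 16.8%. The share that rose was 6.25% in each line, 1 member, against 20.2% and 18.1%. ATP5F1D, the delta subunit of the central stalk, had 116, 141 and 125 CPM in LIM1215-parental, 145, 182 and 161 CPM in LIM1215-R1 and 155, 137 and 165 CPM in LIM1215-R2. The LIM1215-R1 libraries lay above the parental ones, while LIM1215-R2 library 2 lay within their range. The log2 fold change was 0.35 ± 0.0739 and 0.26 ± 0.0741, with edgeR adjusted p of 0.000361 and 0.00765. With trends on transcript length and GC content removed, the values were 0.07 and 0.08 with adjusted p of 0.159 and 0.099, so neither call remained. The call in LIM1215-R2 was lost under 8 of 19 refitted alternatives, scaling by total counts among them.

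The catalytic subunits ATP5F1A and ATP5F1B had the highest CPM of all members. ATP5F1B had 933, 946 and 930.4 CPM in LIM1215-parental, 899, 936 and 905 CPM in LIM1215-R1 and 853, 861 and 865 CPM in LIM1215-R2, and ATP5F1A ran from 551 to 566, 526 to 553 and 497 to 523 CPM. In LIM1215-R2 both fell, by 0.12 and 0.14 on the log2 scale, with edgeR adjusted p of 0.00691 and 0.00582, and in LIM1215-R1 the libraries overlapped with the parental ones. These were the smallest changes that passed, and 8 of 19 refitted alternatives took away the call of ATP5F1B and 6 that of ATP5F1A, among them the fit without a count filter and several that left out a library. The rotor ring is built from the same mature protein made by 3 genes. Of these, ATP5MC2 fell by 0.33 ± 0.0539 and 0.28 ± 0.0538 on the log2 scale, from 126, 135 and 124 CPM in LIM1215-parental to 98.5, 109 and 99.0 CPM in LIM1215-R1 and 104, 105 and 108 CPM in LIM1215-R2, with edgeR adjusted p of 1.68e-05 and 0.000143. ATP5MC1 was at -0.08 and -0.06 and ATP5MC3 at -0.04 and -0.11, and neither passed.

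ATP5PO, the stalk protein that gives oligomycin sensitivity, fell by 0.19 and 0.27 on the log2 scale. It had 139, 154 and 150.5 CPM in LIM1215-parental, 133, 125 and 132 CPM in LIM1215-R1 and 116, 126 and 125 CPM in LIM1215-R2. No resistant library reached the parental range, and the edgeR adjusted p was 0.00608 and 0.000156. The LIM1215-R1 call was lost under 6 of 19 refitted alternatives, with adjusted p up to 0.0315, the fit to 6 libraries among them. ATP5ME, the small membrane subunit e, fell by 0.24 and 0.26, but without parental library 2, its highest, the edgeR adjusted p was 0.0362 and 0.0233. ATP5PD of the peripheral stalk passed in LIM1215-R2 alone, at -0.18, and 9 of 19 alternatives took this call away, among them DESeq2's size factors and the removal of length and GC trends, with -0.11 and an edgeR adjusted p of 0.0399.

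Between the resistant lines, UQCRH was the member that differed. LIM1215-R2 was lower than LIM1215-R1 by 0.21 ± 0.0505 on the log2 scale, with an edgeR adjusted p of 0.00577 and no overlap of libraries. Over all genes tested, LIM1215-R2 was lower than LIM1215-R1 in 3.77% and higher in 3.39%, and among genes with at least 900 counts 5.40% and 5.65%. The median over the 75 members was -0.09, with 66 below zero, against 4974 of the 10085 genes with at least 900 counts. An unadjusted edgeR p under 0.05 was found for 26 of the 75. That share was near the background, 3494 of the 10085 genes with at least 900 counts. The call of UQCRH was lost without LIM1215-R1 library 3, LIM1215-R2 library 1 or LIM1215-R2 library 2. It was also lost with total-count scaling and with length and GC trends removed, where the median of the members was -0.03. Members that passed against LIM1215-parental in only 1 line, UQCRH apart, did not pass this test between the lines.

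Relative levels between genes need a transcript length. With the canonical GENCODE transcript, ATP5F1B had the highest parental level, 532 CPM per kb, followed by COX4I1 at 376 and ATP5ME at 353, and NDUFS1 the lowest, at 8.14. With the shortest transcript that has the same coding length, ATP5F1B was again highest at 532, COX6C came next at 419 instead of 242, COX4I1 was at 401 and NDUFS1 at 40.0, and NDUFV3 was lowest at 8.51. The complex medians were 239 CPM per kb for complex IV, 125 for V, 85.8 for I, 80.2 for II and 69.0 for III with canonical lengths, and 255, 189.5, 87.5, 80.2 and 120.5 with the shortest. Complex IV thus had the highest median per kb and complex V the next under either length, whereas complexes I, II and III changed order. Which transcript was expressed was not measured, and some annotated lengths, such as the 8459 bases of UQCRB, make a level per kb low. The members' transcripts were short, with a median canonical length of 756 bases against 3416 bases for genes with at least 900 counts.

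The 12 genes under the limit of 900 counts had few or no reads. Just outside it were ATP5F1E, the epsilon subunit of ATP synthase, with 509 counts over the 9 libraries, and UQCRHL, an intronless relative of UQCRH, with 242, and just inside was NDUFC2 with 2403. The UQCRHL transcript aligned at 98% identity or more to 2 places on the chromosomes. Whether its reads were left uncounted for this reason was not tested. ATP5F1E had 40 to 82 counts per library. SLMO2-ATP5E, a readthrough gene that carries its older symbol, was listed with 0 counts. Whether reads of ATP5F1E were left uncounted because of it was not tested. NDUFA3 and NDUFA6, both subunits of complex I, had 19 and 2 counts, and their transcripts aligned at 98% identity or more to 9 and 3 further places on alternate sequences of hg38. Whether reads were left uncounted for this reason was not tested, so these low counts are no measure of their expression. Isoforms known from other tissues were at or near 0. COX4I2, COX6A2, COX7A1 and COX7B2 had 0 counts in all libraries, which allows up to 0.0205 CPM over the 9 libraries together at 3 counts, counting error only. COX8C also had 0 counts, but its transcript aligned to 1 further place on an alternate sequence, so no limit is given for it. COX6B2 had 2 counts, ATP5MGL 7, and NDUFA4L2, a paralogue of NDUFA4 known as a hypoxia target, 15.

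The mitochondrially encoded subunits had a smaller difference in summed level than the nuclear members of complex IV, which was not tested. Their 13 genes summed to 64409, 64748 and 62601 CPM in LIM1215-parental, 61089, 63919.5 and 61243 CPM in LIM1215-R1 and 59245 to 61022 CPM in LIM1215-R2, differences of -2.87%, with overlap, and -6.08%, without. The nuclear members of complexes I and III differed less in LIM1215-R1, by -1.53% and -0.834%. In LIM1215-R2, complex II was close, at -6.46%. Of the 13 mitochondrially encoded genes, 2 (15.4%) fell and 0 rose in LIM1215-R1, and in LIM1215-R2, 5 (38.5%) fell and 1 rose, against 20.0% and 16.8% of genes with at least 900 counts that fell. COX3 of complex IV fell by 0.15 and 0.26 on the log2 scale, with edgeR adjusted p of 8.47e-05 and 1.31e-08, and COX1, the catalytic subunit, by 0.13 and 0.11, while COX2 did not pass, at 0.06 and -0.04. ATP8 was lower in LIM1215-R2 at -0.36 and ND5 higher at 0.12. Poly(A) selection affects how well these RNAs are captured, and its part in these values was not tested.

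Of 54 assembly factors, which build the complexes, 6 rose and 6 fell in LIM1215-R1, 11.1% each against 20.2% and 20.0% of genes with at least 900 counts. In LIM1215-R2, 3 (5.56%) rose and 4 (7.41%) fell, against 18.1% and 16.8%, and the medians were 0.03 and 0.01. The complex I assembly factors NDUFAF4 and NDUFAF8 rose, by 0.47 and 0.45 in LIM1215-R1 and by 0.45 and 0.33 in LIM1215-R2. COA3, which acts in complex IV assembly by promoting COX1 synthesis, fell by 0.43 and 0.49 on the log2 scale, with 57.8, 65.8 and 58.6 CPM in LIM1215-parental and no resistant library above 47.6 CPM. NUBPL, which delivers iron-sulfur clusters to complex I, fell in LIM1215-R1 by 0.35, and PET100, another complex IV assembly factor, fell in LIM1215-R2 by 0.40. Of 74 mitochondrial ribosomal proteins, 17 (23.0%) rose and 1 fell in LIM1215-R1, and 6 (8.11%) rose and 3 (4.05%) fell in LIM1215-R2, with medians of 0.10 and 0.02. The share that rose was near the background in LIM1215-R1 and under it in LIM1215-R2. MRPL41 rose by 0.55 and 0.41 and MRPS30 by 0.41 and 0.45, while MRPS6 fell by 0.36 and 0.37, and MRPL11 was lower in LIM1215-R2, at -0.24.

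**Figure D5:**
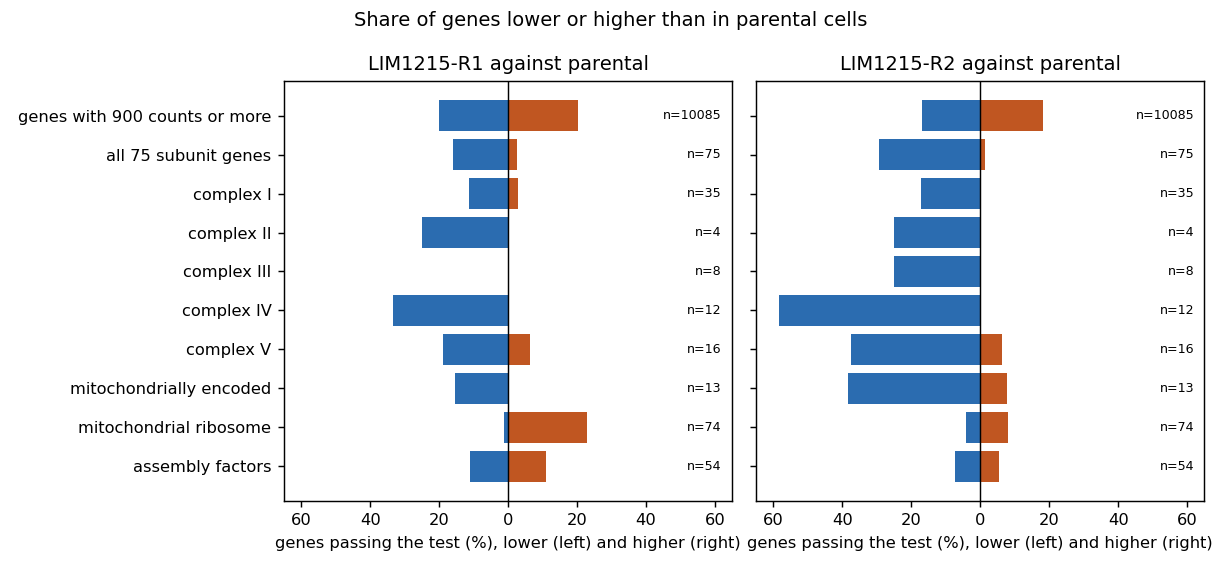
Share of genes (horizontal axes, %) that passed an adjusted p of at most 0.01 as lower (bars to the left) or higher (bars to the right) in LIM1215-R1 and LIM1215-R2 than in LIM1215-parental, for genes with at least 900 counts, the members, each complex and 3 related lists, with the number of genes tested at the right. Lower bars of the members reach 16.0% and 29.3%, against 20.0% and 16.8% of genes with at least 900 counts. Bars to the right reach 20.2% and 18.1% for genes with at least 900 counts. They are shorter for all other rows except the mitochondrial ribosome in LIM1215-R1, which is near that background at 23.0%.

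Of 23 electron carriers and ubiquinone enzymes, 2 (8.7%) rose and 4 (17.4%) fell in LIM1215-R1 and 4 (17.4%) rose and 5 (21.7%) fell in LIM1215-R2, with medians of -0.01 and -0.10. Apart from the lower share that rose in LIM1215-R1, these were near the 20.2%, 20.0%, 18.1% and 16.8% of genes with at least 900 counts. COQ10B, which binds ubiquinone, rose by 0.68 and 0.70, and SQOR, which passes electrons from sulfide to ubiquinone, by 0.46 and 0.24, while COQ6 passed in LIM1215-R2 alone, at 0.42. PRODH, the proline dehydrogenase that feeds ubiquinone, fell from 10.6, 13.1 and 14.0 CPM in LIM1215-parental to 8.59, 8.41 and 9.26 CPM in LIM1215-R1 and 5.77, 4.21 and 5.03 CPM in LIM1215-R2, log2 fold changes of -0.53 and -1.33. COQ8A, needed to make ubiquinone, fell by 0.28 and 0.40, and COQ8B fell in LIM1215-R2 by 0.43.

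Of 14 TCA cycle enzymes, 3 (21.4%) rose and 2 (14.3%) fell in each line, also near the background, with medians of 0.01 and 0.0. OGDH of the oxoglutarate dehydrogenase complex rose by 0.41 and 0.32 and IDH3A, of the NAD-dependent isocitrate dehydrogenase, by 0.37 and 0.45. SUCLG1 of succinate-CoA ligase fell by 0.22 and 0.30, its partner SUCLG2 fell in LIM1215-R1 by 0.35, and IDH2 fell in LIM1215-R2 by 0.30.

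Among 7 tested genes of ATP export and ATP synthase inhibition, 5 rose and 0 fell in LIM1215-R1, and 3 rose and 1 fell in LIM1215-R2. In LIM1215-R1, 7 had an unadjusted edgeR p under 0.05, against 5931 of 10085 genes with at least 900 counts. The shares that rose were 71.4% and 42.9%, against 20.2% and 18.1% of genes with at least 900 counts, over few genes. SLC25A4, an ADP/ATP carrier of the inner membrane, rose from 29.2, 28.2 and 24.7 CPM in LIM1215-parental to 54.0, 48.3 and 52.9 CPM in LIM1215-R1 and 43.9, 49.2 and 50.0 CPM in LIM1215-R2. The resistant libraries lay well above the parental ones, with log2 fold changes of 0.92 and 0.80. VDAC1, the outer membrane channel, rose by 0.32 and 0.27, and ATP5IF1, the inhibitor of ATP synthase, was lower in LIM1215-R2, at -0.25. SLC25A6, another carrier on the list, lies in a region that the X and Y chromosomes share and was listed with 0 counts. Whether its reads were left uncounted was not tested, so this is no measure of its expression.

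Of 15 transcription regulators of respiration genes, 1 (6.67%) rose and 3 (20.0%) fell in LIM1215-R1 and 0 rose and 2 (13.3%) fell in LIM1215-R2, with medians of -0.02 and -0.04, so the shares that fell were near the background of 20.0% and 16.8%. GABPA, which binds the ETS motif printed above, had 45.1, 39.2 and 46.8 CPM in LIM1215-parental, 32.0, 24.0 and 30.3 CPM in LIM1215-R1 and 35.1, 32.6 and 31.3 CPM in LIM1215-R2. No resistant library reached the parental range, and GABPA fell by 0.61 ± 0.0884 and 0.41 ± 0.0871 on the log2 scale, with edgeR adjusted p of 3.27e-06 and 0.000509. YY1 fell by 0.18 and 0.21 and the coactivator PPARGC1B in LIM1215-R1 by 0.40, while TFB2M, a mitochondrial transcription factor, rose in LIM1215-R1 by 0.21. NRF1, at -0.17 in both lines, and TFAM, the mitochondrial DNA packaging factor, at -0.12 and -0.09, did not pass, and PPARGC1A had 29 counts over the 9 libraries. Whether these regulators have a part in the members' values was not tested.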

How the data were processed

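Poly(A) RNA of 3 LIM1215 lines, 3 libraries each, was sequenced from both ends with a stranded kit. The authors aligned reads to hg38 with STAR, counted sense-strand reads per gene with HTSeq 0.9.1 and deposited raw counts without normalization. The gene annotation is not given in the sources used here.

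R 4.3.3, edgeR 4.0.16 and limma 3.58.1 were used. All genes whose counts reached 10 in sum were scaled by TMM and fitted with a quasi-likelihood model of the 3 lines, and p-values were adjusted by Benjamini-Hochberg over all genes tested. The fit was first tested on simulated data. SEs come from the test statistic. Positions are from RefSeq, transcript lengths from GENCODE release 44, and copies from minimap2 2.31.

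Libraries were grouped by their titles. Totals of 13737416 to 18725014 counts gave members 202 to 17712 counts per library, so spread between libraries rather than read counting limits most values. Any member could be named, except 1 that is counted in sums and shares but not reported here singly. Followed through every alternative were the 5 members that rose most and the 5 that fell most among those that passed in each comparison, catalytic core subunits and isoform families. From other lists, the genes with the largest changes in each direction were named, and COX2, NRF1, TFAM, PPARGC1A and SLC25A6 were added after their values were seen. Members and lists were chosen with earlier results of these data known. Alternatives were DESeq2 1.42.0 and its size factors, total counts, library totals without the mitochondrially encoded genes or the 100 most counted genes, other filters, fits to 6 libraries, a replicate block, each library left out, length and GC trends removed, and other thresholds.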

Additional observations from a re-analysis of the deposited data

Results flagged for a closer look

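UQCRH was singled out because it was the member for which a test of the difference between the resistant lines passed. Its log2 fold change of LIM1215-R2 against LIM1215-R1 was -0.21, with an edgeR adjusted p of 0.00577, and all 3 LIM1215-R2 libraries lay below all 3 LIM1215-R1 libraries. The value ran from -0.24 to -0.13 over 19 refitted alternatives, of which 5 took the call away. Groups of 3 libraries were too small to be searched for single outlying libraries.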

How the results depend on the processing

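Members that passed numbered 14 in LIM1215-R1, 23 in LIM1215-R2 and 1 between the resistant lines. For LIM1215-R1, the count was 9 in a fit to the 6 libraries of the comparison and 22 with length and GC trends removed, of which 21 were lower. For LIM1215-R2 it was 36 at an adjusted p of at most 0.05. Between the resistant lines it was 0 with total counts, 2 without the filter, 2 with length and GC trends removed, of which 1 was higher, and 6 at an adjusted p of at most 0.05. At the DEG threshold it was 0 in all comparisons. With each library left out, the counts ran from 9 to 13, from 11 to 28 and from 0 to 3. Between the resistant lines it was 0 without LIM1215-R1 library 3, LIM1215-R2 library 1 or LIM1215-R2 library 2, 2 without parental library 2 and 3 without LIM1215-R1 library 1. The cause of these shifts was not tested. Without COX6C, an alternative chosen after seeing the data, the summed complex IV difference was -6.99% instead of -10.9% in LIM1215-R1 and -14.3% instead of -17.5% in LIM1215-R2.

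With the replicate number as a block, 15, 30 and 4 members passed. Same-numbered libraries had correlations of their deviations from the line means between -0.18 and 0.49, and differently numbered ones between -0.49 and 0.37. Not every library correlated best with its own number. These mixed values cannot decide whether the numbers pair the libraries.

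Of 570, 570 and 494 values of single followed members under alternatives, 526, 527 and 486 kept their direction and call, 34, 26 and 5 no longer passed, 10, 17 and 3 newly passed, and 0 passed in the opposite direction. Under every refitted alternative, 6 of the 14, 11 of the 23 and 0 of the 1 members passed. Counts of a member were at least 202 per library, and a median SE of 0.0597 to 0.0601 on the log2 scale limited which small changes could pass.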
